A study of Homo sapiens with 6 samples.

Results

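The genes described here are 38 genes of glycolysis and of the cellular response to low oxygen, picked out of the table by their symbols. Each of the 38 matched 1 row of the deposited table, which holds 58735 genes. They divide by role into 7 genes of the HIF pathway itself, 23 genes of glucose uptake, glycolysis and lactate handling, and 8 other HIF targets. Their RNA was measured by sequencing in SW480 cells, an established human colorectal cancer line labelled WT. Of the 6 libraries, 3 came from cells transfected with a negative control siRNA and 3 from cells transfected with an siRNA against ITGB4, the integrin β4 subunit, and the series describes each set as biological replicates. The siRNA sequence, the time after transfection, the culture medium and the oxygen level are not given in the sources used here. The comparison asks which of these transcripts differ when ITGB4 RNA is reduced.

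Glycolysis splits glucose into pyruvate in the cytosol, and cancer cells commonly turn much of that pyruvate into lactate even when oxygen is present. Many of its enzymes are targets of the hypoxia-inducible factors (HIF), which pair an α subunit, HIF1A or EPAS1 (HIF-2α), with the constant partner ARNT. In the presence of oxygen the EGLN prolyl hydroxylases mark the α subunits, VHL recognises the mark as part of a ubiquitin ligase, and the α subunits are degraded. This control acts on the protein, so the RNA level of an α subunit does not measure HIF activity.

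Values are FPKM, fragments per kilobase of the annotated exons scaled to library size, and reads per gene could be recovered from them. The libraries held 13715266 to 15496274 reads, so counting error is small for abundant genes. ITGB4 was at 74.3, 63.8 and 69.8 FPKM in the control libraries and at 41.1, 38.1 and 37.9 FPKM with its siRNA, and it fell by 43.7% (log2 fold change -0.81, SE 0.0658, limma adjusted p = 0.0148). Its adjusted p was 0.0709, 0.137 or 0.0968 without ITGB4 siRNA replicate 1, 2 or 3 and 0.0996 without control replicate 3 (limma, adjusted over all genes), with a log2 fold change of -0.87 to -0.76 whichever library was left out. Of 8 colorectal epithelial markers 6 averaged at least 1 FPKM, led by KRT18 at 567.5 FPKM, while VIL1 (0.706) and CDH17 (0.0228) did not. None of the fibroblast (7), endothelial (6) and leukocyte (7) markers reached 1 FPKM.

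None of the 38 genes passed the test between the siRNA groups. Of these, 36 had a mean of at least 1 FPKM and were tested. Limma called 0 of the 36 at an adjusted p under 0.05, where it called 0.0466% of the 12871 genes tested, and the smallest adjusted p among the 36 was 0.852. Limma-voom on the recovered reads also called 0, where it called 0.21% of all genes. At an unadjusted p under 0.05 there were 2 (SLC2A3 and NDRG1), both lower with the ITGB4 siRNA, against 5.83% of all genes in either direction and 2.92% lower. Groups did not overlap in 3 (EPAS1, VEGFA and NDRG1), all lower with the ITGB4 siRNA, against 11.1% of all genes in either direction and 5.36% lower. The log2 fold change, on the scale of FPKM + 1, was below 0 in 22 of the 36 against 51.5% of all genes. Their median was -0.03 against 0.00 for all genes, and they ran from -0.20 (ALDOA) to 0.18 (PFKL). The 95% confidence interval lay within 0.2 on either side of 0 for 19 of the 36 and for 26.4% of all genes tested.

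**Figure D1:**
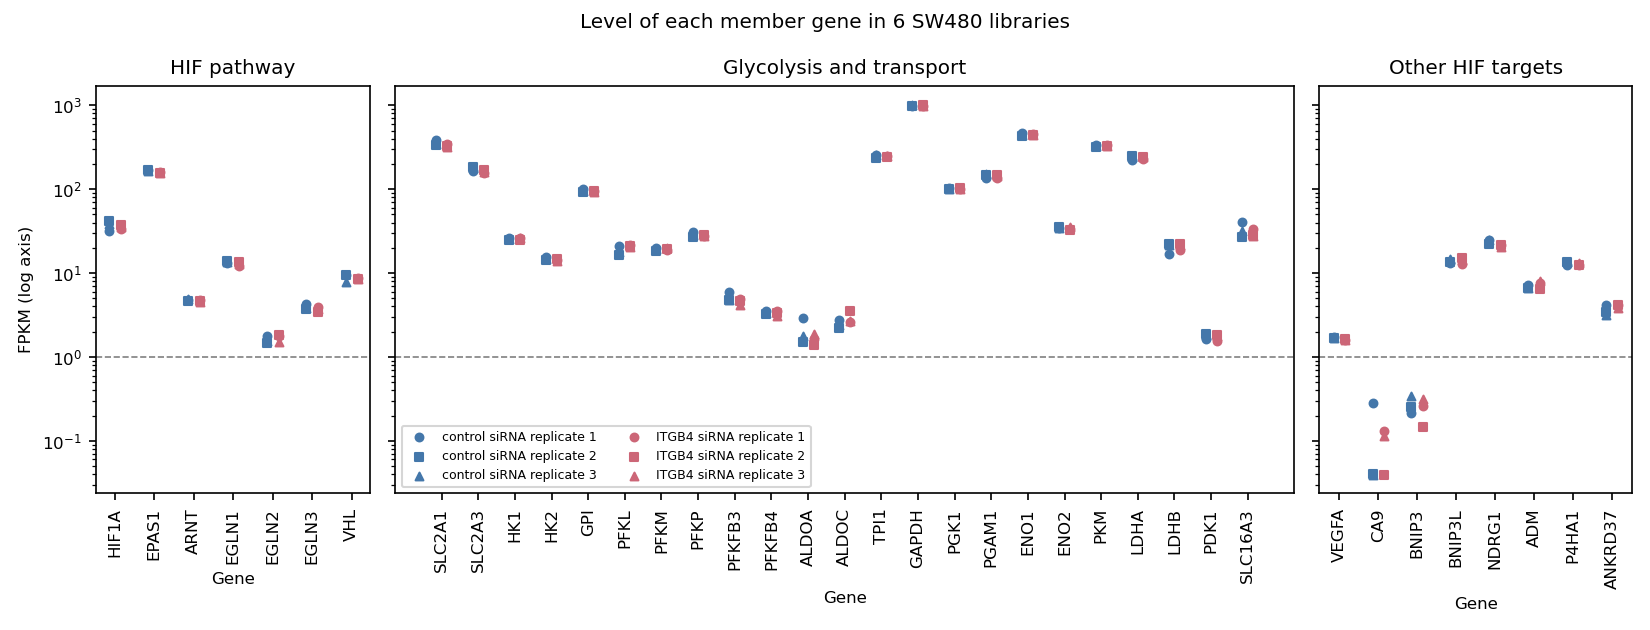
FPKM of each gene (log axis) in the 3 control siRNA libraries (blue) and the 3 ITGB4 siRNA libraries (red), with 1 marker shape per replicate number and a dashed line at 1 FPKM. GAPDH is the highest at about 990.2 FPKM on average, and CA9 and BNIP3 lie below 1 FPKM in all 6 libraries.

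The hypoxia response element that HIF binds has the core ACGTG or GCGTG, and short promoter windows with the core ACGTG are shown for 8 of the genes, to set the letters beside levels that differ widely. RefSeq promoters (GRCh38.p14, 250 bases before to 50 after a gene start, often with several starts per gene) were matched for 33 of the 38 genes, and SLC2A3, VHL, VEGFA, NDRG1 and BNIP3L had no entry. Capitals mark the core, read in the direction of the gene: ACGTG where it lies on the gene's own strand and CACGT where it lies on the opposite strand.
PGK1: aaacggaagccgCACGTctcactagtacc
TPI1: cgtgcgccgccgCACGTagccccagactc
LDHA: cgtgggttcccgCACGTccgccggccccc
ENO2: acccgcgctcgtACGTGcgcctccgccgg
P4HA1: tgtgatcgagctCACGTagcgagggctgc
ANKRD37: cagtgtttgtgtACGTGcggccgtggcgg
CA9: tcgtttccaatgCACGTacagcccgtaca
BNIP3: cgcacgcgccgcACGTGccacacgcaccc
The windows lie at chrX:78104053-78104081 (PGK1, plus strand), chr12:6868076-6868104 (TPI1, plus), chr11:18394478-18394506 (LDHA, plus) and chr12:6914450-6914478 (ENO2, plus). The others lie at chr10:73096936-73096964 (P4HA1, minus), chr4:185396686-185396714 (ANKRD37, plus), chr9:35673898-35673926 (CA9, plus) and chr10:131982040-131982068 (BNIP3, minus). The core began 17 bases before the gene start in TPI1, 18 in CA9, 73 in LDHA and 183 in PGK1.

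Both strands were searched, and CACGTG, which reads ACGTG on each strand, counts as a match on both. The 61 windows came from 33 genes, and windows of some genes, such as HK1 and PFKM, overlap each other. The windows for comparison, 12658 in number, came from 8754 of the 12871 genes tested. ACGTG was present in 24 of the 61 windows (39.3%) and in 26.0% of the comparison windows. GCGTG was present in 23 of the 61 (37.7%) and in 50.2% of the comparison windows, and either core in 65.6% and 62.2%. Among matched genes, 30 held either core in at least 1 window and 28 of these were tested, with a median log2 fold change of -0.02. The 3 that held neither had a median of -0.04. The genes whose windows are shown ran from 0.11 FPKM (CA9) to 249.3 FPKM (TPI1) on average. A match is a description of the letters and not a bound site.

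Among the HIF pathway genes EPAS1 was the most abundant per length. The log2 fold change was below 0 in 6 of the 7, against 51.5% of all genes, with a median of -0.07 for the 7. Limma called 0 of the 7, against 0.0466% of all genes, and 0 had an unadjusted p under 0.05, against 5.83%. EPAS1 (ENSG00000116016; GRCh38 chromosome 2, 46293667 to 46386703) was at 169.3, 169.3 and 164.8 FPKM with control siRNA and 161.6, 157.7 and 157.2 FPKM with ITGB4 siRNA. Every ITGB4 siRNA library lay below every control library, with a mean difference of -5.35% (log2 fold change -0.08, 95% interval -0.16 to 0.01, limma adjusted p = 0.883; exact two-sided permutation p = 0.1, the smallest that 3 against 3 allow).

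HIF1A (chromosome 14, 61695513 to 61748259) was at 32.1, 41.6 and 38.3 FPKM with control siRNA and 33.1, 37.3 and 35.4 FPKM with ITGB4 siRNA. Its lowest and its highest library were both controls, replicates 1 and 2. HIF1A made up 18.2% ± 1.97 of the summed FPKM of the 2 α subunits in the controls and 18.2% ± 1.08 with the ITGB4 siRNA (SD, n = 3 each). ARNT, the partner of both, was far less abundant, at 4.79 ± 0.0966 and 4.63 ± 0.172 FPKM (SD, n = 3 each).

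EGLN1 (PHD2), the main oxygen sensor in many cells, was at 13.2, 13.7 and 13.6 FPKM with control siRNA and 12.2, 13.4 and 12.8 FPKM with ITGB4 siRNA. It took 68.1% to 72.5% of the summed FPKM of the 3 prolyl hydroxylases over the 6 libraries. EGLN3 (PHD3), itself a HIF target, was at 3.96 ± 0.319 and 3.72 ± 0.257 FPKM, and EGLN2 (PHD1) at 1.60 ± 0.163 and 1.70 ± 0.183 FPKM (SD, n = 3 each). EGLN2 shares 2012 of its 6577 exon bases (30.6%) with RAB4B-EGLN2 on the same strand. How reads in shared bases were counted is not given in the sources used here, and their part in the EGLN shares was not tested. VHL ran from 7.73 to 9.58 FPKM in the controls and from 8.54 to 8.77 FPKM with the ITGB4 siRNA, inside the control range. The median of the 7 genes was -0.04 without control replicate 1 and also without ITGB4 siRNA replicate 2.

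Glucose enters these cells through facilitative transporters, and both transporter genes of the set were lower on average with the ITGB4 siRNA, without passing the test. SLC2A3 (GLUT3, a high-affinity transporter; chromosome 12, 7919230 to 7936275) was at 165.4, 183.7 and 180.5 FPKM with control siRNA and 155.04, 167.6 and 160.3 FPKM with ITGB4 siRNA. The groups overlapped in 1 library, ITGB4 siRNA replicate 2, which lay above control replicate 1. The log2 fold change was -0.13 (SE 0.0542, 95% interval -0.26 to -0.0029, limma unadjusted p = 0.0462 and limma adjusted p = 0.852). SLC2A1 (GLUT1, the basal transporter of many cancer cells; chromosome 1, 42925375 to 42959176) was at 384.02, 332.8 and 349.3 FPKM with control siRNA and 344.1, 328.4 and 320.3 FPKM with ITGB4 siRNA (log2 fold change -0.10, limma adjusted p = 0.977). Control replicate 1 was its highest library.

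Summed over both transporters, the controls held 549.4, 516.5 and 529.8 FPKM and the ITGB4 siRNA libraries 499.2, 496.04 and 480.6 FPKM. The sums of the groups did not overlap, with a mean difference of -7.51%. The sum was formed with these values in view and is a description. SLC2A1 took 66.8% ± 2.82 of it in the controls and 67.3% ± 1.47 with the ITGB4 siRNA (SD, n = 3 each).

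The enzymes from hexokinase to lactate dehydrogenase were level between the groups when summed. Their 17 genes together held 2784, 2723 and 2781 FPKM in the controls and 2740, 2799 and 2764 FPKM with the ITGB4 siRNA, a mean difference of 0.187%. The sum is a description and mostly reflects GAPDH (990.2 FPKM on average), ENO1 (449), PKM (329.7), TPI1 (249.3) and LDHA (238.7). It says little about less abundant genes such as HK2 (14.6) or ALDOA (1.85). Among the 23 genes of uptake, glycolysis and lactate handling limma called 0, against 0.0466% of all genes. At an unadjusted limma p under 0.05 there was 1 (SLC2A3), against 5.83% of all genes. Of the 23, 13 lay below 0 and 10 above, where 51.5% of all genes lay below. The median of the 23 was -0.02.

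Hexokinase traps glucose as glucose 6-phosphate. HK1 ran from 25.1 to 26.2 FPKM in the controls and from 24.7 to 26.4 FPKM with the ITGB4 siRNA, and HK2, the inducible form often raised in tumours, from 14.4 to 15.4 and from 13.7 to 14.8 FPKM. HK1 took 63.2% of their sum in the controls and 64.3% with the ITGB4 siRNA. GPI, which converts glucose 6-phosphate to fructose 6-phosphate, was at 95.9 ± 4.02 and 94.3 ± 1.43 FPKM (SD, n = 3 each).

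Phosphofructokinase commits the sugar to glycolysis and is built from the products of 3 subunit genes, none of which passed the test. PFKL (liver type; chromosome 21, 44300051 to 44327376) was at 21.1, 16.4 and 17.8 FPKM with control siRNA and 21.6, 20.9 and 20.3 FPKM with ITGB4 siRNA. Control replicate 1 was as high as the ITGB4 siRNA libraries, and the other two controls lay below them all. The log2 fold change was 0.18 (SE 0.0888, 95% interval -0.03 to 0.39, limma adjusted p = 0.929), and it was 0.28 without control replicate 1 (limma adjusted p = 0.23).

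PFKP (platelet type; chromosome 10, 3066333 to 3137712) was at 30.9, 26.8 and 28.7 FPKM with control siRNA and 27.8, 28.8 and 27.5 FPKM with ITGB4 siRNA. PFKM (muscle type) was at 19.3 ± 0.927 and 19.5 ± 0.616 FPKM (SD, n = 3 each). Within each library, PFKP made up 42.8%, 43.5% and 43.5% of the summed FPKM of the 3 subunits in the controls and 40.7%, 41.6% and 40.5% with the ITGB4 siRNA. PFKL made up 29.3%, 26.7% and 27.0% in the controls and 31.6%, 30.2% and 29.9% with the ITGB4 siRNA. Neither share overlapped between the groups, and as parts of the same total the shares are not independent. The FPKM of PFKP and of PFKL themselves did overlap. For PFKP, the leading subunit, the difference was -2.33 percentage points (exact two-sided permutation p = 0.1, adjusted p = 0.5 over 10 gene families).

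**Figure D2:**
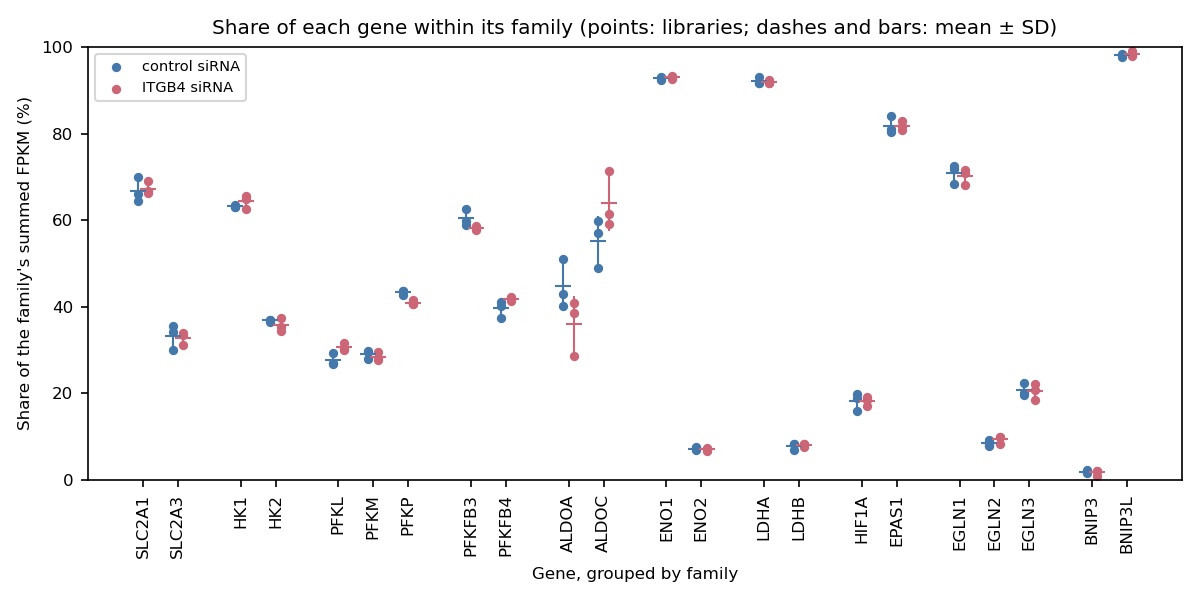
Share of each gene in the summed FPKM of its family, in percent, for the control siRNA (blue) and ITGB4 siRNA (red) libraries, with points for libraries and dashes with bars for mean ± SD. Families hold only genes of the set, so PFKFB2 and ENO3 are not part of them. The PFKL share lies higher and the PFKP share lower in all 3 ITGB4 siRNA libraries, while ENO1, LDHA and BNIP3L each hold over 91% of their family in every library.

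PFKFB3 and PFKFB4 make and remove fructose 2,6-bisphosphate, an activator of phosphofructokinase, and both are known HIF targets. PFKFB3 was at 5.91, 4.82 and 4.75 FPKM with control siRNA and 4.95, 4.70 and 4.17 FPKM with ITGB4 siRNA. Its highest library was control replicate 1, and the groups overlapped. PFKFB4 was at 3.37 ± 0.153 and 3.32 ± 0.255 FPKM (SD, n = 3 each). PFKFB2, a related gene outside the set, was more abundant than either, at 8.49 ± 0.277 and 8.73 ± 0.254 FPKM (SD, n = 3 each). It is left out of the share given next, so that share does not show which PFKFB gene leads in these cells. The PFKFB3 share of the pair was 62.5%, 59.7% and 58.9% in the controls and 58.1%, 58.6% and 57.7% with the ITGB4 siRNA, which did not overlap (difference -2.28 percentage points, exact permutation p = 0.1, adjusted p = 0.5 over 10 families). Without control replicate 1 the difference was -1.2 percentage points.

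The steps that follow include the most abundant genes of the set. GAPDH, which makes the first high-energy intermediate, was at 976.4, 987.0 and 998.7 FPKM with control siRNA and 969.1, 1023 and 987.3 FPKM with ITGB4 siRNA, ranking 19 among all genes tested by mean FPKM. PGK1, the first ATP-yielding enzyme, was at 103.2, 101.5 and 101.5 FPKM with control siRNA and 101.7, 104.05 and 101.5 FPKM with ITGB4 siRNA. Its highest library was 1.03 times its lowest, the narrowest range of the 38 genes, and its 95% interval was -0.08 to 0.09. TPI1, which interconverts the triose phosphates, was at 250.7 ± 10.4 and 247.8 ± 3.86 FPKM (SD, n = 3 each). PGAM1, a mutase, was at 144.2 ± 7.18 and 142.9 ± 6.26 FPKM.

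ENO1, the main enolase, was at 471.8, 428.7 and 444.2 FPKM with control siRNA and 456.5, 447.8 and 445.0 FPKM with ITGB4 siRNA. The ITGB4 siRNA values lay inside the control range. ENO2, the neuronal enolase, was at 34.8 ± 0.289 and 33.8 ± 1.33 FPKM. It took 6.76% to 7.58% of the sum of ENO1 and ENO2 over the 6 libraries. PKM, pyruvate kinase, was at 341.0, 318.7 and 325.5 FPKM with control siRNA and 338.6, 325.6 and 328.8 FPKM with ITGB4 siRNA. The gene-level value does not separate the PKM1 and PKM2 splice forms.

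Pyruvate is reduced to lactate by lactate dehydrogenase, whose A subunit gene had the higher listed FPKM. LDHA was at 225.9, 248.01 and 242.3 FPKM with control siRNA and 231.3, 242.0 and 242.9 FPKM with ITGB4 siRNA (log2 fold change 0.00, 95% interval -0.11 to 0.11). LDHB was at 16.9, 22.3 and 21.9 FPKM with control siRNA and 18.8, 22.0 and 21.8 FPKM with ITGB4 siRNA. LDHB shares 997 of its 2983 exon bases (33.4%) with AC010197.2, a protein-coding gene on the same strand. How reads in shared bases were counted is not given in the sources used here, and their part in the LDHB level was not tested. For both subunits replicate 1 was the lowest library within each group. PDK1, which inhibits pyruvate dehydrogenase in mitochondria and so limits the conversion of pyruvate to acetyl-CoA, was at 1.78 ± 0.13 and 1.72 ± 0.158 FPKM (SD, n = 3 each), and replicate 1 was again the lowest of each group.

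SLC16A3 (MCT4, the lactate exporter induced by hypoxia; chromosome 17, 82228397 to 82261129) was at 40.9, 27.0 and 31.9 FPKM with control siRNA and 33.4, 28.1 and 28.0 FPKM with ITGB4 siRNA. Its highest value was again control replicate 1. The log2 fold change of -0.14 (SE 0.147, limma adjusted p = 0.998) became 0.02 without that library.

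ALDOA and ALDOC, the aldolases that cleave fructose 1,6-bisphosphate, had the lowest levels of the enzymes from hexokinase to lactate dehydrogenase. ALDOA (chromosome 16, 30064164 to 30070457) was at 2.92, 1.499 and 1.79 FPKM with control siRNA and 1.64, 1.40 and 1.85 FPKM with ITGB4 siRNA, from 84 to 169 reads. ALDOC was at 2.79, 2.24 and 2.38 FPKM with control siRNA and 2.61, 3.49 and 2.68 FPKM with ITGB4 siRNA. The mean difference was -21.1% for ALDOA and 18.5% for ALDOC, the latter above the 13.6% of PFKL. On the scale of FPKM + 1 the log2 fold changes of such low genes are smaller in size, at -0.20 for ALDOA and 0.17 for ALDOC. Limma-voom gave -0.29 and 0.25 (limma-voom adjusted p = 0.998 and 0.977). The ALDOA value stands beside TPI1 and GAPDH at over 100 times its level, and its gene model shares 1657 of its 3916 exon bases (42.3%) with AC093512.2, a protein-coding gene on the same strand listed at 0.381 FPKM on average. How reads in shared bases were counted is not given in the sources used here, and the part of the shared bases in the ALDOA level was not tested.

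**Figure D3:**
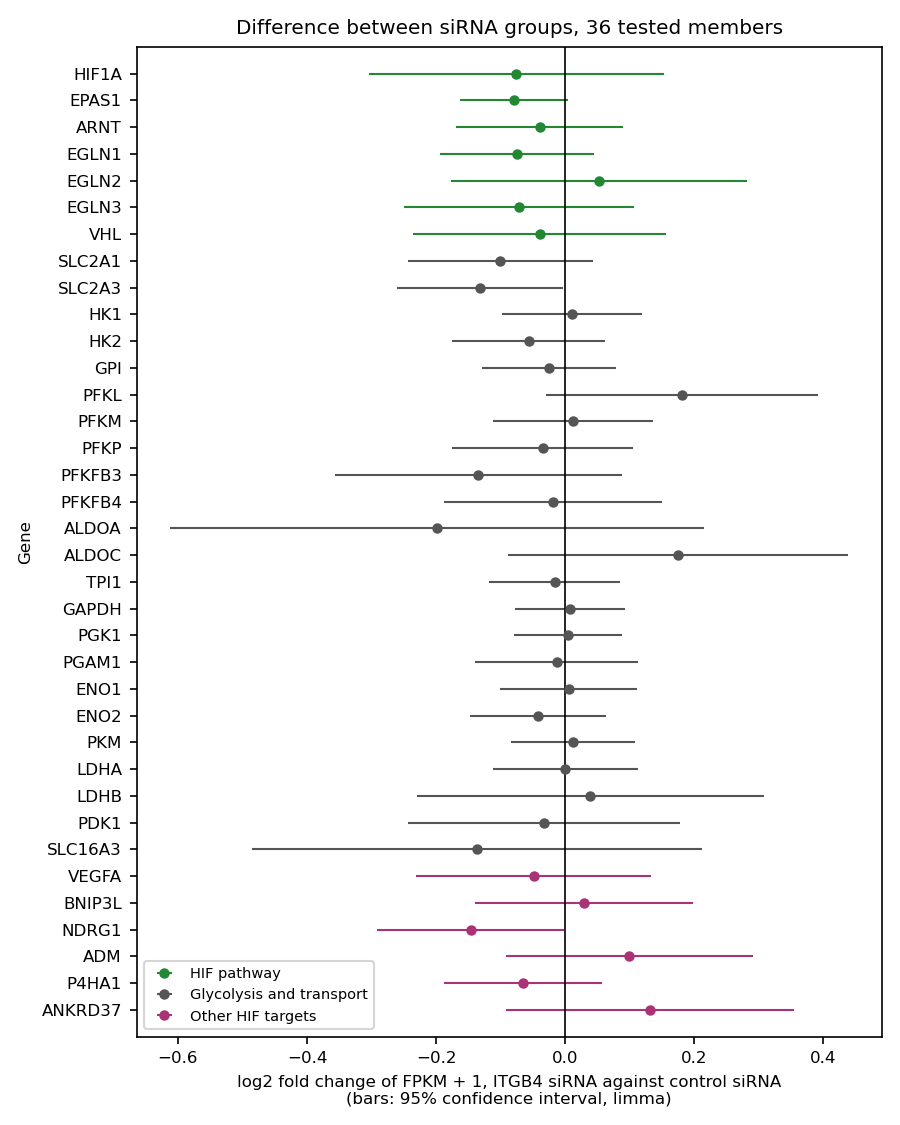
Log2 fold change of FPKM + 1 for the 36 tested genes, ITGB4 siRNA against control siRNA, with 95% confidence intervals from limma and colours for the 3 roles. Points run from -0.20 (ALDOA) to 0.18 (PFKL), the bars of PGK1, GAPDH and PKM are among the narrowest, and no gene passed the adjusted test.

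Of the 8 other HIF targets 6 were tested, with 3 above 0 and 3 below and a median of -0.01, where 51.5% of all genes lay below. Limma called 0 of the 6, against 0.0466% of all genes, and 1 had an unadjusted p under 0.05, against 5.83%. NDRG1, a stress-induced protein linked to differentiation and to metastasis suppression (chromosome 8, 133237171 to 133302022), was at 24.6, 21.9 and 24.7 FPKM with control siRNA and 21.8, 21.9 and 20.4 FPKM with ITGB4 siRNA. The groups did not overlap, with 21.93 FPKM in the lowest control and 21.86 FPKM in the highest ITGB4 siRNA library. The log2 fold change was -0.15 (SE 0.0611, 95% interval -0.29 to -0.0011, limma unadjusted p = 0.0487 and limma adjusted p = 0.852).

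VEGFA, the main angiogenic factor induced by hypoxia, was at 1.74, 1.69 and 1.69 FPKM with control siRNA and 1.60, 1.64 and 1.61 FPKM with ITGB4 siRNA. Every ITGB4 siRNA library was lower, with a mean difference of -5.23% (log2 fold change -0.05, limma adjusted p = 0.998; exact permutation p = 0.1). These values rest on 320 to 372 reads per library. P4HA1, a collagen prolyl hydroxylase, was at 12.6, 13.5 and 13.5 FPKM with control siRNA and 12.3, 12.3 and 13.0 FPKM with ITGB4 siRNA, with overlap.

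ADM, the vasodilator peptide adrenomedullin, and ANKRD37 had the largest differences above 0 in this set. ADM was at 7.24, 6.55 and 6.57 FPKM with control siRNA and 7.54, 6.53 and 8.01 FPKM with ITGB4 siRNA (log2 fold change 0.10). ANKRD37 was at 4.22, 3.40 and 3.20 FPKM with control siRNA and 4.14, 4.16 and 3.78 FPKM with ITGB4 siRNA (log2 fold change 0.13, limma adjusted p = 0.998). Its highest library was control replicate 1, and the other two controls lay below all ITGB4 siRNA libraries. The gene shares 909 of its 2580 exon bases (35.2%) with UFSP2 on the opposite strand, at 6.62 FPKM on average, and the strandedness of the libraries is not given in the sources used here.

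CA9, carbonic anhydrase IX and a common marker of hypoxic tumour cells, had 7, 1 and 1 reads in the controls and 3, 1 and 3 reads with the ITGB4 siRNA, at most 0.283 FPKM, and was not tested. It shares 643 of 1670 exon bases (38.5%) with ARHGEF39 on the opposite strand. BNIP3, a mitochondrial protein of mitophagy, had 17, 20 and 28 reads in the controls and 19, 12 and 26 with the ITGB4 siRNA, also below 1 FPKM. The 39 rows named as BNIP3 pseudogenes held 12 to 33 reads per library, from 61.5% to 191.7% of the reads of BNIP3 itself. Its relative BNIP3L, which also acts in mitophagy, was at 13.9 ± 0.712 and 14.2 ± 1.17 FPKM (SD, n = 3 each) and held at least 97.7% of the FPKM of the pair in every library.

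The differences between replicates of a group were of the same order as those between the groups. Over the 36 tested genes the median of the within-group SD was 0.07 on the log2 scale and the median size of the log2 fold change was 0.05, against 0.10 and 0.06 for all genes tested. The size of the fold change exceeded the within-group SD in 14 of the 36, and in 28.9% of all genes tested. Control replicate 1 was the highest of the 6 libraries for 14 of the 36, where it was the highest for 25.7% of all genes tested, and the lowest for 4, against 23.5%. It was highest for SLC2A1, SLC16A3, PFKFB3, ALDOA, GPI, ENO1 and PKM, and lowest for HIF1A, PGAM1, LDHA and LDHB. Control replicate 2 was the highest for 9 of the 36 and the lowest for 11, against 23.5% of all genes tested for each, so it was at an extreme in 20 of the 36 and replicate 1 in 18. Replicate 1 was looked at separately after the values had been seen. The share of mitochondrially encoded reads in replicate 1 was 4.70%, the lowest of the 6 libraries (4.70% to 5.49%), and the part of that difference in these results was not tested.

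**Figure D4:**
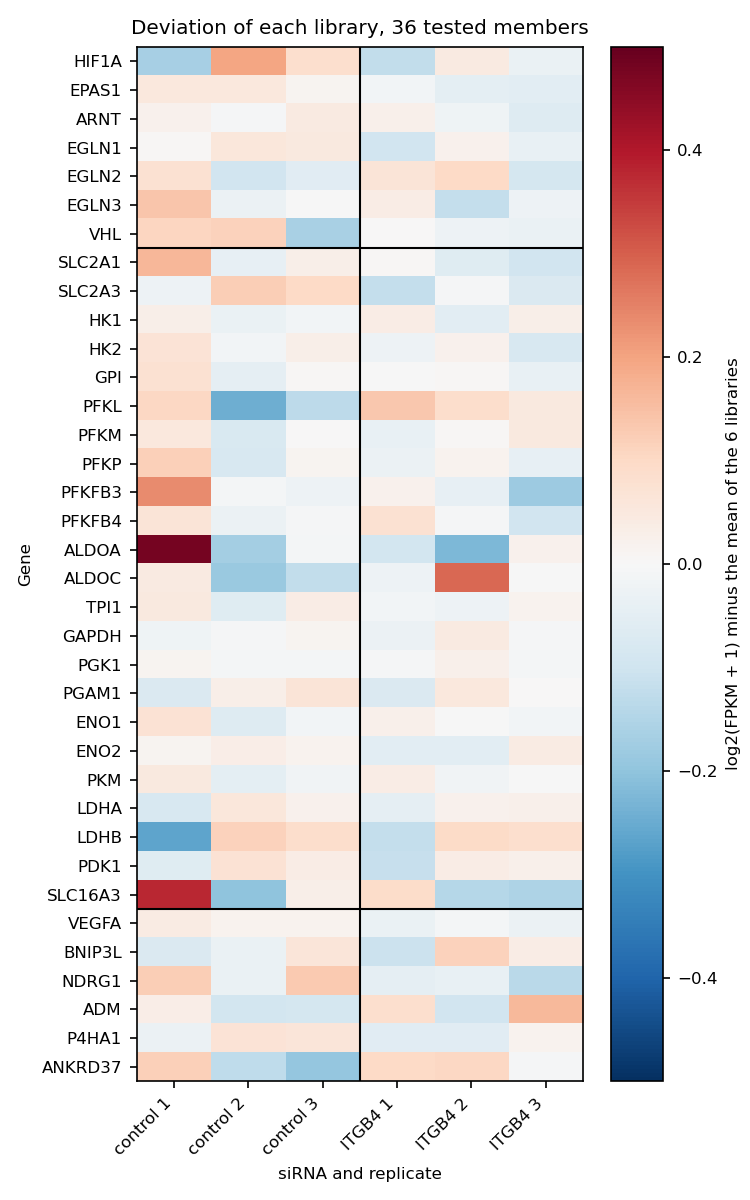
Deviation of each library from the mean of the 6 libraries, as log2(FPKM + 1), for the 36 tested genes in rows, with black lines between the siRNA groups and between the 3 roles. Control replicate 1 is the highest library for 14 genes, among them ALDOA and SLC16A3, and the lowest for LDHB and HIF1A.

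Without control replicate 1, 4 of the 36 genes had an unadjusted limma p under 0.05, against 2 with all libraries. Over all genes tested the share was 10.2% without that library, so 4 of 36 was near the background. These were SLC2A3 (log2 fold change -0.18), HIF1A (-0.18), PFKL (0.28) and ANKRD37 (0.22). None of the 4 passed over all genes (limma adjusted p = 0.321, 0.461, 0.23 and 0.394 in that order). NDRG1 had the smallest p among the 36 without control replicate 2 (log2 fold change -0.20, limma adjusted p = 0.62).

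Other genes of the same pathways were described from lists of 96 genes known from these pathways, of which 69 were tested. Limma called 0 of the 69 (limma-voom 0), and 8 had an unadjusted p below 0.05. Of those, 2 were higher and 6 lower, where 2.91% of all genes were higher and 2.92% lower. Groups did not overlap in 14, 3 higher and 11 lower, against 5.75% and 5.36% of all genes. The median was -0.01.

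Among the 14 tested genes of pyruvate and lactate handling, SLC16A1 (MCT1, a lactate and pyruvate transporter; chromosome 1, 112911847 to 112957013) had the smallest p. It was at 55.6, 57.8 and 58.0 FPKM with control siRNA and 51.7, 52.2 and 50.9 FPKM with ITGB4 siRNA, with every ITGB4 siRNA library below every control. The log2 fold change was -0.14 (SE 0.0389, 95% interval -0.24 to -0.05, limma adjusted p = 0.606). PDK2, a pyruvate dehydrogenase kinase, was at 3.17 ± 0.348 and 3.78 ± 0.368 FPKM and DLAT, a subunit of that dehydrogenase, at 24.4 ± 1.38 and 23.1 ± 0.77 FPKM (SD, n = 3 each), both with overlap. The 8 pentose phosphate genes had 0 at an unadjusted p under 0.05 by limma, against 5.83% of all genes. RPIA, at 25.99 ± 1.9 and 28.1 ± 0.473 FPKM, had the smallest p of the list.

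Of 25 tested further HIF targets, limma called 0 and 5 had an unadjusted p below 0.05, against 5.83% of all genes. Of the 5, ERO1A was higher and 4 were lower, where 2.91% of all genes were higher and 2.92% lower. Groups did not overlap in 8, 2 higher and 6 lower, against 5.75% and 5.36% of all genes. ERO1A, an oxidase of disulfide formation in the endoplasmic reticulum, was at 10.4 ± 0.764 and 12.1 ± 0.497 FPKM (log2 fold change 0.20, limma adjusted p = 0.758). GBE1, the glycogen branching enzyme, was at 8.72 ± 0.525 and 7.64 ± 0.19 FPKM (-0.17), and BHLHE41, a transcriptional repressor, at 3.21 ± 0.483 and 2.54 ± 0.125 FPKM (-0.25; SD, n = 3 each). The groups did not overlap in any of these 3 genes.

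Of 14 tested HIF regulators, RBX1, a ring subunit of the VHL ubiquitin ligase, was at 13.1 ± 0.771 and 11.6 ± 0.428 FPKM (log2 fold change -0.16, limma adjusted p = 0.806). ARNT2, a paralogue of ARNT, was at 2.56 ± 0.177 and 3.05 ± 0.242 FPKM (0.19, limma adjusted p = 0.852; SD, n = 3 each). EP300, a coactivator of HIF, was at 16.8 ± 0.635 and 15.6 ± 0.29 FPKM (-0.10). The 8 tested further glycolytic genes had 0 at an unadjusted p under 0.05 by limma, against 5.83% of all genes. ADPGK, a glucokinase that uses ADP, was at 8.45 ± 0.215 and 7.66 ± 0.477 FPKM (-0.13).

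Exons of 23 of the 38 genes overlap another annotated gene, 7 of them over at least 10% of their bases. Besides ALDOA, ANKRD37 and CA9 these are EGLN2 (30.6% with RAB4B-EGLN2), LDHB (33.4% with AC010197.2), GAPDH (14.2% with AC006064.4) and ALDOC (10.1% with AC005726.4). The overlapping gene named for each averaged at most 0.0142 FPKM, and for EGLN2 and LDHB it lies on the same strand. Since the counting of reads in shared bases is not given, a low value there does not show whether these genes lost reads. Glycolytic genes also have many processed pseudogenes, and 15 of the 38 had rows named as theirs, 146 in all. GAPDH pseudogenes (62 rows) held 0.197% to 0.288% of the reads of GAPDH per library, those of LDHA 0.151% to 0.244% and those of TPI1 1.20% to 1.65%. Pseudogene reads counted under the genes themselves cannot be seen in these values.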

How the data were processed

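RNA from 6 SW480 libraries was captured on poly-T beads, per the labels' protocols. The authors deposited FPKM per gene for GRCh38, per the file headers and the submitters' processing notes, which name DESeq2 and edgeR without their roles. The aligner and the counting tool are not given in the sources used here. All 58735 gene positions and exon lengths equal GENCODE release 29. FPKM times length gave whole reads for 100% of values at a tolerance of 0.01.

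Titles gave the groups. The 12871 genes averaging at least 1 FPKM were fitted as log2(FPKM + 1) with limma 3.58.1 (R 4.3.3, limma-trend, no replicate term), two-sided, with Benjamini-Hochberg adjustment over all genes and calls at an adjusted p under 0.05. The fit was tested on simulated data. Limma-voom with TMM factors used the recovered reads. Alternatives were another pseudocount, other filters, 2 rescalings, a replicate block and leaving out each library. Summaries used Python 3.11.15 and pandas 2.3.3. Every one of the 38 genes is named, with up to 3 genes of smallest p per further list. The genes and lists were written from pathway membership with earlier results of these data known, so the choice was not independent of the data.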

Additional observations from a re-analysis of the deposited data

How the results depend on the processing

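No tested gene of the 38 passed over all genes in any of the 13 alternatives. Among 458 comparisons of the 36 tested genes, 428 kept their direction and 30, in 18 genes, turned sign, each when 1 library was left out. Their log2 fold changes then ran from -0.0204 to 0.0907 (BNIP3L), -0.0256 to 0.0434 (ENO1), -0.0134 to 0.0253 (GAPDH), -0.0527 to 0.0068 (GPI), -0.1771 to 0.0037 (HIF1A), -0.0051 to 0.0392 (HK1), -0.0384 to 0.0285 (LDHA), -0.0822 to 0.1083 (LDHB), -0.0711 to 0.0162 (PDK1) and -0.0604 to 0.025 (PFKFB4). The others ran from -0.023 to 0.0426 (PFKM), -0.0833 to 0.0152 (PFKP), -0.0535 to 0.0204 (PGAM1), -0.0069 to 0.0127 (PGK1), -0.0095 to 0.0392 (PKM), -0.272 to 0.0178 (SLC16A3), -0.0509 to 0.0042 (TPI1) and -0.1309 to 0.008 (VHL). With 1 library left out, the median of the HIF pathway genes lay between -0.0715 and -0.0389 and that of the other HIF targets between -0.0368 and 0.0192. It gave 0 to 4 of the 36 at an unadjusted p under 0.05, where the share over all genes ran from 4.06% to 10.2%. That count was 1 with TPM (5.76% of all genes), 1 with no filter (4.24%) and 1 with a pseudocount of 0.1 (5.8%). It was 3 with limma-voom (5.7% of all genes), namely SLC2A3, NDRG1 and PFKL. With the replicate block (8.27%), SLC2A3 and PFKL were under 0.05 and NDRG1 was not.

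Over all genes limma called 6, and 0 with no filter, 0 with the replicate block, 27 with limma-voom and 0 to 7 when 1 library was left out; the cause was not tested. ITGB4 stayed below 0, at -0.8113 with no filter (adjusted p = 0.0618) and -0.8113 with the replicate block (0.0564), and from -0.8686 to -0.7604 (0.0309 to 0.137) when 1 library was left out. Libraries sharing number 1, 2 or 3 had deviations from their group means that correlated at 0.173, 0.102 and -0.01. Control and ITGB4 siRNA libraries with different numbers correlated at -0.174 to 0.0862. The labels do not say that a number pairs libraries, so the main fit did not pair them. With the replicate block, 8.27% of all genes had an unadjusted limma p under 0.05, against 5.83% without it. The 10 family shares moved by less than the replicate spread in all 70 comparisons. With 1 library left out, the group difference in share still turned sign for some leading genes. In percentage points it ran from -0.65 to 2.08 (SLC2A1), -1.88 to 0.44 (EGLN1) and -0.74 to 1.14 (EPAS1). It ran from -0.44 to 0.24 for LDHA and from -0.14 to 0.45 for BNIP3L. At 84 to 372 reads, as in ALDOA, EGLN2, VEGFA and ANKRD37, counting error adds to the spread.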

Other observations

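Several forms of the glycolytic enzymes known from other tissues were near the floor. PKLR averaged 0.0139 FPKM over the 6 libraries, HK3 0.00332 and HKDC1 0.197, and PGAM2 was listed at 0 in all of them. ENO3, another enolase, averaged 4.24 FPKM and was tested. The gluconeogenic enzymes PCK1 (0.00325), FBP1 (0.588) and FBP2 (0.269) were also below 1 FPKM. Others were above it, with PCK2 at 9.90, PC at 5.99 and G6PC3 at 17.1 FPKM on average. Among further HIF targets, EPO (0.0503), CA12 (0.0274), LOX (0.168), PLOD2 (0.0397), ANGPTL4 (0.244) and PPP1R3C (0.275) were below 1 FPKM as well, beside CA9 and BNIP3. The genes below 1 FPKM were not tested.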
